A study of Mus musculus with 6 samples.

Results

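Plk1, Aurka, Aurkb, Bub1, Bub1b, Bub3, Mad2l1, Ttk, Cdc20 and Ube2c encode the kinases that drive mitosis, the checkpoint that watches chromosome attachment, and 2 parts of the machinery that the checkpoint holds back. They were chosen by gene symbol: every probe set annotated to 1 of these symbols alone was taken, which gave 22 of the 34945 probe sets with a single symbol and 10 of the 18193 genes on the array. RNA came from retinas of newborn mice in 2 groups, cyclin D1 -/- (called knockout below) and wildtype, with 3 numbered pools of neonates in each. Expression was read on Affymetrix arrays, 1 for each pool. The labels give no Cre, drug or strain, and do not say how the knockout allele was made, how many animals a pool held or whether litters were shared, so the spread behind each p-value is that between pools. The submitters asked how genes bound by cyclin D1 change when the protein is absent, and the binding data were not analysed here.

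A cell that enters mitosis switches on a small set of kinases. Aurora A and Plk1 act at the spindle poles and on mitotic entry, aurora B corrects wrong attachments between chromosomes and the spindle, and Mps1 (the product of Ttk) starts the alarm at unattached kinetochores. Bub1, BubR1 (Bub1b), Bub3 and Mad2 carry that alarm, which ends in an inhibitor built around Cdc20. Cdc20 activates the anaphase-promoting complex, a ubiquitin ligase, and Ube2c is a ubiquitin-conjugating enzyme that works with it, so that their release lets chromosomes separate. In the newborn retina, the dividing cells are mostly progenitors, whereas neurons have left the cycle.

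The promoters of several of these genes hold the cell cycle genes homology region, an element of letters TTTGAA that is known to bind the MuvB complexes, which repress mitotic genes in resting cells and activate them in dividing ones. The promoters are shown first, and whether the element has a part in the differences below was not tested. RefSeq windows (GRCm38.p6) from 250 bases before to 50 bases from an annotated start were found for 9 of the 10 genes, Aurkb being the exception. Where a gene had several windows the outermost was used, and both strands were searched. In Aurka, Bub1b, Bub3 and Ttk the annotated gene began further out than the window's start. The Aurka gene begins at 172370886 on the minus strand, so its upstream stretch (172370571 to 172370820) lies inside the gene. In 7 of the 9 windows TTTGAA was present, which is 77.8%, against 11.5% of the 8888 tested genes with a window and 18.2% of all 27025 genes with one. Among genes called lower in knockout retinas, which include these 10, 74 of 230 windows held it (32.2%), and among genes called higher 20 of 175 did (11.4%). The 7 stretches of 30 bases around the element are printed below 5′ to 3′ on the gene's strand, with the element in capitals. It reads TTCAAA where it lies on the other strand.
Plk1 (chr7:122159453-122159482, plus strand): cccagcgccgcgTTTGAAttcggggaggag
Aurka (chr2:172370521-172370550, minus strand): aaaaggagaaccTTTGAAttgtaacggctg
Bub1b (chr2:118598231-118598260, plus strand): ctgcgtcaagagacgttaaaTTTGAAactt
Bub3 (chr7:131560315-131560344, plus strand): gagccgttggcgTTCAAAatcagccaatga
Ttk (chr9:83834684-83834713, plus strand): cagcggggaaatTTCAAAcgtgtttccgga
Cdc20 (chr4:118437344-118437373, minus strand): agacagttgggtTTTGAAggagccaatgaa
Ube2c (chr2:164769888-164769917, plus strand): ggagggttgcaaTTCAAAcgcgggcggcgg

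With the start used for each window as base 1, the first base of the element was at 31 in Plk1, 33 in Aurka, 41 in Bub1b and 8 in Ttk. It lay before the start, at -18, in Cdc20, at -29 in Ube2c and at -43 in Bub3. The related letters TTCGAA, which read the same on both strands, were found in 2 windows, at 15 in Bub1 and at -188 in Bub1b, and in 2.05% of the tested genes' windows. CCAAT, the letters bound by NF-Y, was in 8 of 9 windows (88.9%), against 38.5% of the tested genes' windows. TTTGAA and CCAAT occurred together in 7 of 9 windows and in 4.70% of the tested genes' windows. The E2F-type letters TTTCGCGC and TTTGGCGC were in none of the 9 windows, which says only that these letters are not in them. Of the 9, the Mad2l1 window held none of the searched motifs. Matches are a description of letters and were not tested. The upstream stretches of Cdc20 and Ube2c, the genes with the largest falls below in their brightest probe sets, are given in full with TTTGAA and CCAAT of either strand in capitals. In Ube2c a CCAAT and its reverse complement overlap.
Cdc20 (chr4:118437344-118437593, minus strand, 250 bases before the start): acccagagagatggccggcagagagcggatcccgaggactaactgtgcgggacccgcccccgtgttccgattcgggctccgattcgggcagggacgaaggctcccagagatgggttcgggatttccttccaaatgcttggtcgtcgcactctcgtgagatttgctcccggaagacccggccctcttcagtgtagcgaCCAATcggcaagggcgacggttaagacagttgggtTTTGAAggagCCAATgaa
Ube2c (chr2:164769679-164769928, plus strand, 250 bases before the start): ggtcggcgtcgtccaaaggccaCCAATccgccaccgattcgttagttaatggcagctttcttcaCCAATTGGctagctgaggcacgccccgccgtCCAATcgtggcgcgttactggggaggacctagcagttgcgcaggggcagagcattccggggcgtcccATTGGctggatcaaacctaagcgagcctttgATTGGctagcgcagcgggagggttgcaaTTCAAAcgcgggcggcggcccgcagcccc

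Signals below are the deposited array intensities after quantile normalisation, in array units. Means, SDs and differences are on the scale log2(signal + 16), differences are knockout minus wildtype, and a gene is called where its adjusted p is at or under 0.10, the submitters' false discovery rate. Each gene is represented by its brightest probe set, and the 40% of genes that were dimmest were not tested. All 10 genes passed that filter. The number of arrays limits the precision. The deleted gene checked the labels: Ccnd1 gave 447, 432 and 468 units in the knockout pools, against 5508, 5218 and 6017 in the wildtype pools. Arrays also differed by the brightness of bacterial hybridisation controls, which averaged 961 to 1201 units with knockout pools 1 and 2 and wildtype pool 3, and 771 to 854 units with knockout pool 3 and wildtype pools 1 and 2. The 3 arrays with the brightest and the 3 with the dimmest controls were taken as sets by rank, with no wide gap between them. Both sets hold both genotypes, and within-set differences, each resting on a single array of 1 genotype, are given below. Pools 1 and 2 of each genotype were also the most alike pairs, with an SD of the log2 difference over tested genes of 0.21 in knockout and 0.22 in wildtype, against 0.28 to 0.52 for other pairs. Whether they share tissue or RNA is not known. Wildtype pool 3 differed from wildtype pools 1 and 2 by 0.46 and 0.52 on that measure, against 0.33 to 0.50 between pools of different genotype.

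All 10 genes were lower in cyclin D1 -/- retinas. Each was called lower, against 2.63% of the 10916 tested genes (287 genes), and none was called higher, against 2.03%, and in each the 3 knockout pools lay below the 3 wildtype pools, against 9.48% of tested genes. Their median log2 difference was -0.85, beside 0.02 over all tested genes, and single differences ran from -1.34 for Ube2c to -0.35 for Bub3. In bulk tissue, fewer dividing cells and less of these RNAs per cell cannot be told apart. Within the sets of arrays all 10 differences were below 0 in both, as were those of 25.9% of tested genes. Since the groups did not overlap in any of the 10, that sign was fixed beforehand and is no separate check.

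**Figure D1:**
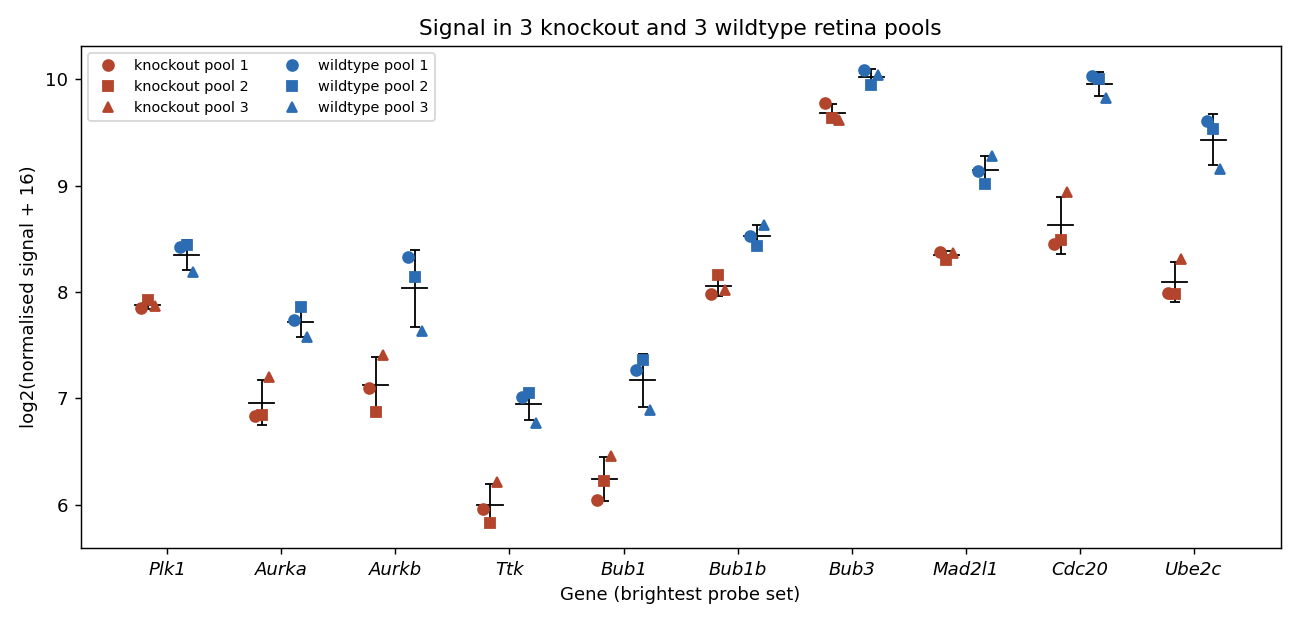
Signal of the brightest probe set of each of the 10 genes, as log2(normalised signal + 16), in 3 knockout pools (red, left) and 3 wildtype pools (blue, right), with marker shapes for pools 1, 2 and 3 and black bars for mean and SD. In every gene all knockout points lie below all wildtype points, and the means lie farthest apart for Cdc20 and Ube2c.

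Ube2c and Cdc20, which act on the anaphase-promoting complex, had the largest differences of the 10 in their brightest probe sets. Ube2c is read by 1 probe set, so averaging a gene's probe sets could not change its value (-1.34). With that averaging Aurkb (-1.04) came before Cdc20 (-0.89), whose average includes a probe set too dim to test. Ube2c, the ubiquitin-conjugating enzyme, had signals of 239.0, 237.0 and 302 units in knockout pools 1, 2 and 3, against 765, 723 and 556 in wildtype pools 1, 2 and 3. The brightest knockout pool was well under the dimmest wildtype pool, and pool 3 was nearest to the other genotype on both sides. Ube2c averaged 8.10 ± 0.19 in knockout and 9.43 ± 0.24 in wildtype retinas (SD, n = 3 each). The log2 difference was -1.34 (SE 0.15), 2.52-fold lower in knockout, with a limma adjusted p of 0.00444. Ordered from the lowest difference up, Ube2c had rank 14 and Cdc20 rank 15 of the 10916 tested genes.

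Cdc20, the activator of the complex and the target of the checkpoint, had 334, 344 and 474 units in knockout pools, against 1028, 1012 and 890.2 in wildtype pools. Again knockout pool 3 was the highest of its genotype and wildtype pool 3 the lowest. The means were 8.63 ± 0.27 in knockout and 9.95 ± 0.11 in wildtype (SD, n = 3 each), a 2.51-fold fall (log2 difference -1.33, SE 0.14, limma adjusted p = 0.00346). Its brightest probe set is one whose name ends in _x_at, a mark the manufacturer gives to sets that may also bind other transcripts. A second bright probe set without that mark fell by 0.68 on the log2 scale (SE 0.10, adjusted p = 0.0117 over probe sets), so the direction was shared and the size was not. The third was too dim to test, with at most 2.8 units in knockout pools and 1.4 to 23.7 in wildtype pools.

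Mad2l1 encodes Mad2, the checkpoint protein that clamps onto Cdc20. It is read by 1 probe set, which gave 315, 299 and 315 units in knockout pools, against 549, 503 and 604 in wildtype pools. The knockout pools were nearly equal, and wildtype pool 3 was the highest rather than the lowest of its genotype. The mean was 8.35 ± 0.04 in knockout and 9.14 ± 0.13 in wildtype retinas (SD, n = 3 each), a 1.74-fold fall (log2 difference -0.80, SE 0.10, limma adjusted p = 0.00618).

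Both kinases that start the checkpoint signal fell. Ttk, whose product Mps1 recruits the other checkpoint proteins to kinetochores, had 46.4, 40.8 and 58.3 units in knockout pools, against 113, 116 and 93.3 in wildtype pools (log2 difference -0.94, SE 0.16, limma adjusted p = 0.0213). Bub1, a kinase that marks centromeres and docks BubR1, had 50.2, 58.5 and 72.1 units in knockout pools, against 138, 148 and 102 in wildtype pools (log2 difference -0.93, SE 0.18, limma adjusted p = 0.0357). For both, pool 3 was the highest knockout pool and the lowest wildtype pool, and the groups did not overlap. A further Bub1 probe set gave 54.0, 65.1 and 73.2 units in knockout pools, against 62.1, 64.3 and 84.6 in wildtype pools. There the groups overlapped and the set was not called (log2 difference -0.11, SE 0.17, limma adjusted p = 0.940), so the Bub1 call rests on 1 of 2 bright probe sets. A second Ttk probe set was too dim to test, at 6.3 to 16.8 units over all arrays.

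Bub1b encodes BubR1, the checkpoint protein that joins Mad2 and Bub3 on Cdc20. Its brightest probe set gave 237, 270 and 243 units in knockout pools, against 352, 329 and 381 in wildtype pools. The groups did not overlap, and the difference was among the smaller ones (-0.48, SE 0.11, limma adjusted p = 0.0615). Another Bub1b probe set gave 69.6, 101 and 129 units in knockout pools, against 276, 308 and 213 in wildtype pools. That set differed by -1.30 on the log2 scale (SE 0.21, adjusted p = 0.0191 over probe sets), so the size of the Bub1b fall depended on the probe set read.

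Bub3, the WD-repeat partner of Bub1 and BubR1, is needed for their binding to kinetochores and is also made outside mitosis. It had 860.2, 780.4 and 771 units in knockout pools, against 1071, 967 and 1039 in wildtype pools. This was the smallest difference of the 10 (-0.35, SE 0.08, limma adjusted p = 0.0760), a fall of 1.27-fold. Of its 5 probe sets 3 were bright enough to test, and the others of these differed by -0.14 and -0.36 without passing the test (limma adjusted p = 0.923 and 0.720). With arrays centred on their medians in place of quantile normalisation the Bub3 difference was -0.20 and its call ended (limma adjusted p = 0.706, the largest over its 21 alternatives). With the values as deposited it was -0.14 (limma adjusted p = 0.638).

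Set against the mean of the other 9 genes within each array, Bub3 was relatively higher in knockout retinas. That sign follows from Bub3 having the smallest fall of these genes. No such contrast was made for Plk1 or Bub1b, whose differences were also small (-0.47 and -0.48). Bub3 minus that mean was 2.38, 2.24 and 1.98 in knockout pools and 1.63, 1.52 and 1.83 in wildtype pools on the log2 scale. The means were 2.20 ± 0.20 in knockout and 1.66 ± 0.16 in wildtype (SD, n = 3 each), a difference of 0.54, and the groups did not overlap. The exact permutation test, two-sided, gave p = 0.1, which is the smallest that 3 against 3 arrays allow.

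The kinases of mitotic entry and spindle assembly fell as well, with the smallest of these differences in Plk1. Plk1, polo-like kinase 1, is read by 1 probe set and had 215, 226 and 218 units in knockout pools, against 326, 330.4 and 275 in wildtype pools. The knockout pools were nearly equal, and wildtype pool 3 was closest to them (log2 difference -0.47, SE 0.11, limma adjusted p = 0.0777). Aurka, aurora kinase A of the spindle poles, had 98.1, 98.6 and 131 units in knockout pools, against 197, 216 and 175 in wildtype pools (log2 difference -0.76, SE 0.15, limma adjusted p = 0.0404). Aurkb, the kinase of the chromosomal passenger complex, had 121, 101 and 153 units in knockout pools, against 306, 265 and 183 in wildtype pools (log2 difference -0.91, SE 0.21, limma adjusted p = 0.0724). In Aurkb, pool 3 of the genotypes differed by only 153 against 183 units, the narrowest gap of the aurora kinases. Like that of Cdc20, the brightest Aurkb probe set has a name ending in _x_at, so it may also bind other transcripts. A second Aurkb probe set, with a name ending in _s_at, was also lower (log2 difference -1.17, SE 0.26, adjusted p = 0.0639 over probe sets).

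Within families the exact test did not separate the paralogs. Aurka minus Aurkb within an array was -0.17 ± 0.12 in knockout and -0.31 ± 0.27 in wildtype (SD, n = 3 each), a difference of 0.15 (exact permutation p = 0.4, two-sided), and the groups overlapped. Bub1 minus Bub1b was -1.81 ± 0.22 in knockout and -1.36 ± 0.35 in wildtype (SD, n = 3 each), a difference of -0.45 (exact permutation p = 0.2, two-sided). With a gene's probe sets averaged that difference was 0.18, the opposite sign. Neither p shows that the paralogs acted alike.

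Over all 22 probe sets, 16 were bright enough to test and 13 were called lower, against 2.02% of the 20967 tested probe sets. The 3 not called were 1 of Bub1 and 2 of Bub3. The 6 that were too dim had differences from -0.67 to -0.01, on values near the bottom of the scale.

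**Figure D2:**
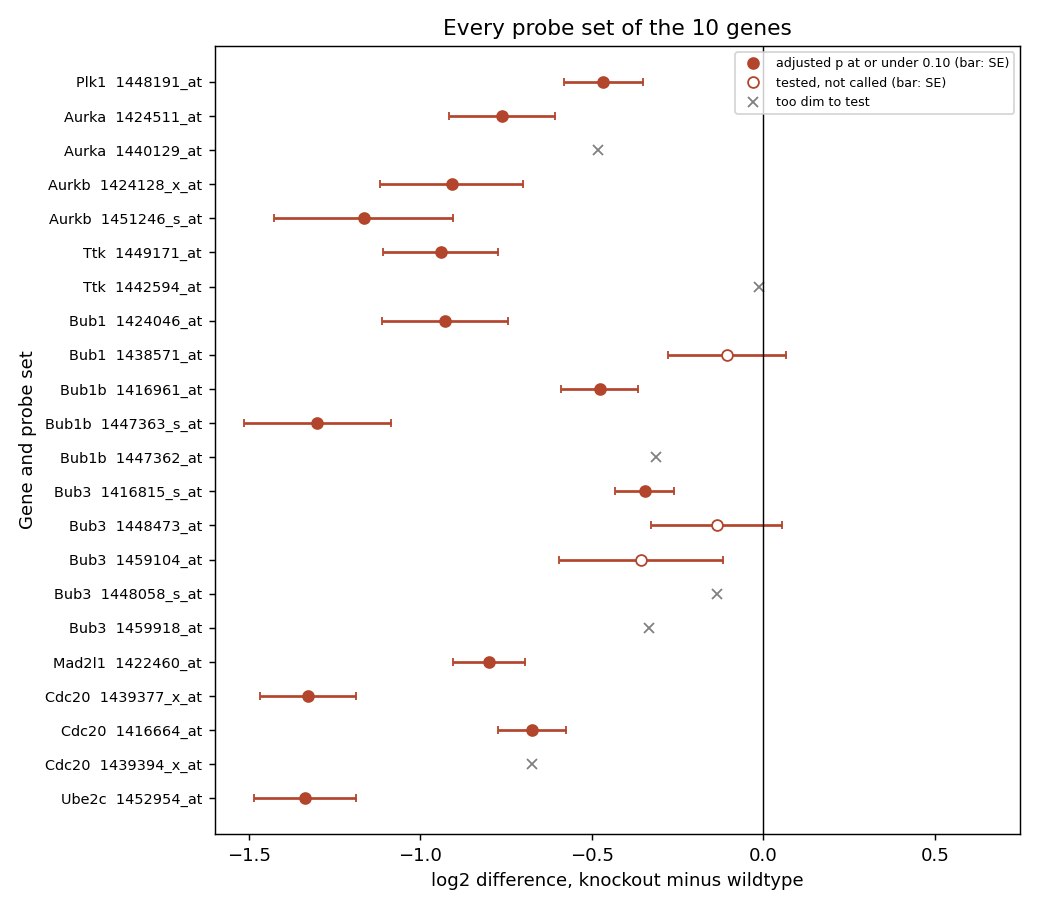
Log2 difference, knockout minus wildtype, of all 22 probe sets of the 10 genes, with SE bars for the 16 tested. Filled points were called at an adjusted p of 0.10, open points were not, and crosses were too dim to test. Both Aurkb sets and 2 sets each of Cdc20 and Bub1b are called, whereas Bub1 and Bub3 have 1 called set each.

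Pool 3 lay nearest to the other genotype in most of the genes. Among knockout pools, pool 3 was the highest for 6 of the 10 genes (Aurka, Aurkb, Bub1, Ttk, Cdc20 and Ube2c), as it was for 38.6% of tested genes. Among wildtype pools, pool 3 was the lowest for 7 of the 10, those 6 and Plk1, as it was for 49.8% of tested genes. Against each gene's wildtype mean, the median of the 10 genes was -0.91, -0.92 and -0.67 in knockout pools 1, 2 and 3, and 0.07, 0.09 and -0.15 in wildtype pools 1, 2 and 3. The smallest within-set difference was that of Plk1 in the set with brighter controls, -0.30, beside -0.56 in the set with dimmer controls. Cdc20 differed by -1.35 and -1.08, Ube2c by -1.17 and -1.26 and Mad2l1 by -0.94 and -0.71 in the sets with brighter and dimmer controls.

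The number of calls depended on single arrays. Over 21 alternative settings each gene had 19 to 21 values, and all 207 of these were below 0. Settings that change only the test or the filter repeat the reported difference. Since the groups did not overlap, leaving out or averaging pools could not change the sign either. Many of these values are therefore no separate check of direction. The call was kept in 135 and lost in 72. Mad2l1, Cdc20 and Ube2c lost theirs in 1 alternative each, the one that averages pools 1 and 2 of each genotype and so leaves 2 samples per genotype (limma adjusted p = 0.168, 0.112 and 0.143). No gene of the 10 was called by limma there, when 0.238% of all tested genes were called lower. All 10 had an unadjusted limma p under 0.05, but the share of all tested genes under that p is not given here. Of the 10, 3 remained called without knockout pool 1, when 0.907% of all tested genes were called lower, 3 without knockout pool 2 (1.02% of all), and 7 without knockout pool 3 (1.88%). In the same way 3 remained without wildtype pool 1 (1.18%), 4 without wildtype pool 2 (1.38%) and 10 without wildtype pool 3, when 9.66% of all tested genes were called lower, against 2.63% with all arrays. The submitters' error model, rebuilt from the settings in the labels, called 4, when 1.1% of all tested genes were called lower. Bub3 lost its call in 15 alternatives, Plk1 in 13, Bub1b in 11, Aurkb in 10, Aurka in 8, Bub1 in 7 and Ttk in 5.

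**Figure D3:**
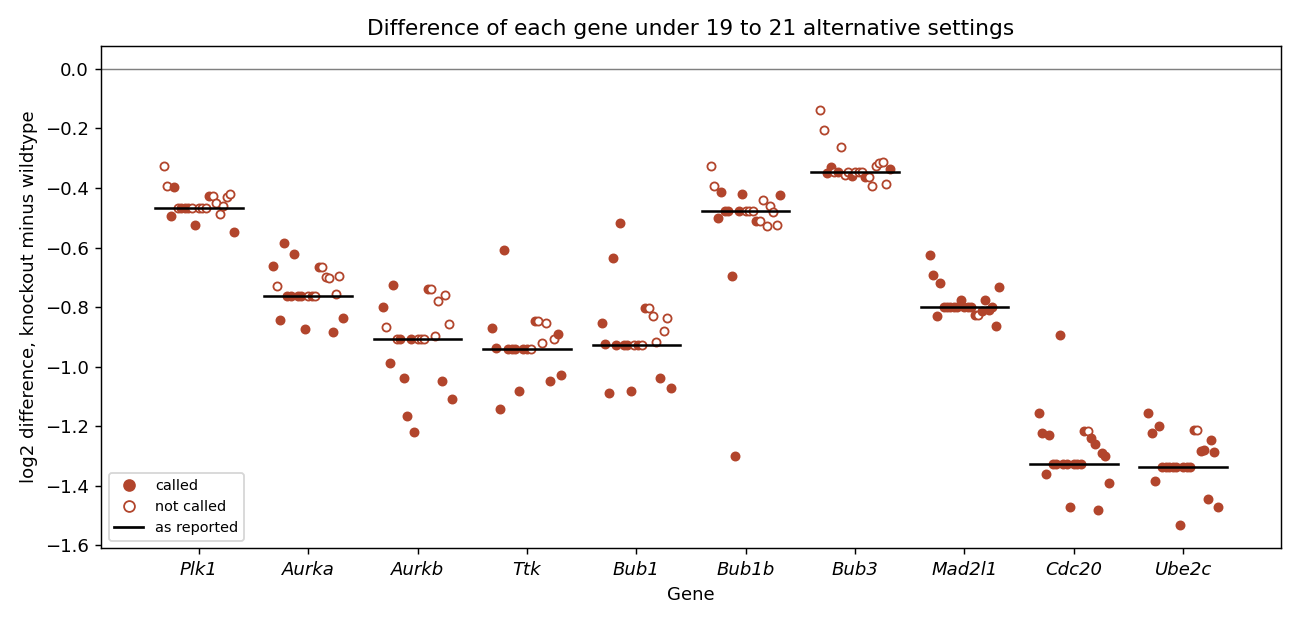
Log2 difference, knockout minus wildtype, of each gene under its 19 to 21 alternative settings, filled where called and open where not, with a black line at the value reported. All points lie below 0, and Mad2l1, Cdc20 and Ube2c each have 1 open point.

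Related genes were described from lists of partners, targets and regulators, to show where else in the same machinery RNA differed. Of 9 tested partners and activators of these kinases 4 were called lower and 1 higher, with a median log2 difference of -0.70. The lower ones were Cdca8, Birc5 and Incenp, which form the chromosomal passenger complex with aurora B (-1.32, -1.27 and -1.14), and Tpx2, which activates aurora A on microtubules (-0.87). Of the 4 tested Tpx2 probe sets 2 were called, and the highest difference among them was 0.22. Ajuba, a LIM protein reported to activate aurora A, was the 1 higher (0.98, limma adjusted p = 0.0251), and was named after its value was seen. Bub1 marks centromeres for the shugoshins, which protect cohesion there, and Sgo1 and Sgo2a of that family were the 2 lower genes among 9 other checkpoint and centromere protection genes (-0.91 and -1.12). In that list Zwint, a kinetochore protein that is also made in neurons, was higher by 0.44 in its brightest probe set (limma adjusted p = 0.0923), while another of its 4 tested sets differed by -0.53. The list's median was -0.05.

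No tested subunit of the anaphase-promoting complex itself was called. Of 18 tested subunits, partner enzymes and inhibitors, only Fbxo5, the inhibitor Emi1, was called lower (-0.87, limma adjusted p = 0.00802) and none was called higher, with a median of -0.05. Of 10 tested genes whose proteins the complex sends for destruction, 7 were called lower and none higher, with a median of -0.70. Among them were Ccna2, cyclin A2 (-1.36), Cdca3 (-1.23), Rrm2, a subunit of ribonucleotide reductase (-0.96), and Gmnn, the licensing inhibitor geminin (-0.74). For Cdca3, 1 of 3 tested probe sets was called, and the highest of the others differed by 0.22.

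Of 17 other kinases and phosphatases of mitotic entry 4 were called lower and none higher, with a median of -0.19. They were Pbk (-1.20) and Melk (-1.17), kinases of proliferating cells, Plk4, the kinase of centriole duplication (-1.19), and Cdk1, the main mitotic kinase (-0.94). Of 20 tested transcription factors of mitotic genes 6 were called lower and none higher, with a median of -0.27. E2f7 and E2f8, the atypical E2F repressors, differed by -1.18 and -0.86, Nfyb, a subunit of the factor that binds CCAAT, by -0.49, and Lin9, a MuvB subunit, by -0.65. The other Lin and Nfy genes of the list were not called: Lin37 (-0.07), Lin52 (0.04), Lin54 (-0.46), Nfya (-0.34) and Nfyc (-0.34). Plk2, Plk3 and Plk5, the polo-like kinases with roles outside mitosis, were too dim to test.

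**Figure D4:**
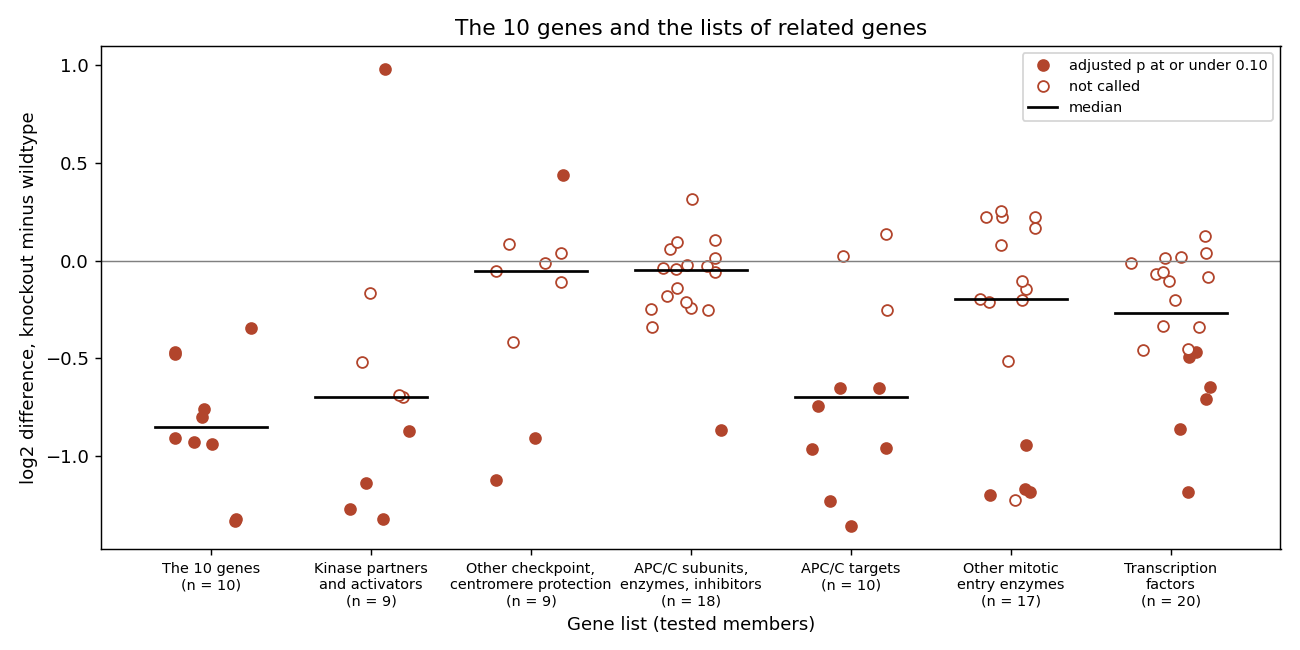
Log2 difference, knockout minus wildtype, of the 10 genes and of the tested members of 6 lists of related genes, filled where called, with a black line at each median. The medians are -0.85 for the 10 genes, -0.70 for kinase partners and for targets of the anaphase-promoting complex (APC/C), and -0.05 for the complex's subunits.

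The genes outside the 10 whose signal over the 6 arrays was most like the mean scaled profile of the 10 were H2ax, Spc25, Racgap1, Nxph4 and Fignl1. Pearson's r was 0.999 for H2ax, a histone variant marked at DNA breaks, and 0.998 each for Spc25, of the Ndc80 kinetochore complex, Racgap1, of the central spindle, Nxph4 and Fignl1. The points fall in 2 groups of 3 arrays, so r mainly measures a shared difference between genotypes. Their log2 differences were -1.21, -1.02, -1.32, -0.84 and -0.98 in the brightest probe sets. Of 2 tested probe sets each, Spc25 and Fignl1 had 1 called, and the other differed by -0.28 in Spc25 and by 0.17 in Fignl1. Within the 10, r to the same profile ran from 0.902 for Bub1b to 0.997 for Ube2c.

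Some markers of the cell types in and around the retina also differed with genotype. Of 9 tested progenitor markers 2 were called lower, Lhx2 (-0.66) and Sox2 (-0.56), and 1 higher, Fgf15 (0.71), with a median of -0.08 and a summed signal of 4680 to 4897 units in knockout pools and 5206 to 5506 in wildtype pools. Of 9 neuron markers 5 were higher and 1 lower, with sums of 6433 to 6765 units in knockout pools and 4483 to 4759 in wildtype pools. Of 7 photoreceptor precursor markers 1 was higher and none lower, with sums of 6641 to 7427 units in knockout pools and 4941 to 6139 in wildtype pools. Of 10 lens markers 9 were higher and none lower, and their sum was 22054.5 to 53121 units in knockout pools, against 2841 to 7839 in wildtype pools. Among pigment epithelium markers 1 of 6 tested was lower, and none of 1 vessel and blood marker and 2 microglia markers was called. The dimmest marker, Alas2 of red blood cells, had 1.0 to 2.38 units, at or near the floor of 1. The part of these cell types in the falls of the 10 genes was not tested.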

How the data were processed

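Total RNA of 3 knockout and 3 wildtype retina pools was biotin-labelled, per the labels, and read on Affymetrix arrays. The deposited table holds 1 linear intensity per probe set and array. How probes were summarised and scaled is not stated in the labels. Of 45101 probe sets, 64 controls were left out. Probe sets with 1 symbol in the platform annotation (34945) were used, those with several (932) or none (9160) were not, and 34741 symbols were updated through Entrez identifiers with RefSeq names (GRCm38.p6). The deposited intensity values, whose median log2 differed by 0.31 between arrays against a tolerance of 0.1, were quantile normalised, floored at 1 and taken to log2(value + 16), which understates folds of dim genes. No detection calls were used. Each gene was read by its probe set with the highest mean, and the dimmest 40% of genes (7277) and of probe sets (13978) were not tested. limma 3.58.1 in R 4.3.3 (intensity trend, no covariate, two-sided, Benjamini-Hochberg over all genes or all probe sets tested) compared knockout with wildtype. The fit was tested on simulated data. Within-array contrasts used exact permutation tests over the 6 arrays. Promoter windows came from RefSeq, and figures were drawn with matplotlib 3.10.9.

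The submitters' own test, per the labels, used the larger of an average (window of 200, highest 1% of variances removed) and a Bayesian (5 degrees of freedom) error variance. It was rerun as an alternative with 9 degrees of freedom, a choice the labels do not give. The members, lists, tests and alternatives were chosen with earlier results of these data known. The rule for named genes took the 10 genes, Ccnd1, the 5 genes with the most similar profile and, from each related list, up to 4 called genes with the smallest p. Ajuba, the Lin and Nfy genes that were not called and the markers named were outside it.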

Additional observations from a re-analysis of the deposited data

How the results depend on the processing

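Of the 10 genes called lower, 5 remained with arrays centred on their medians, when 1.24% of all tested genes were called lower. The submitters' error model called 4 (1.1% of all tested genes), and an adjusted p of 0.05 left 6 (1.79%). With each genotype's pools 1 and 2 averaged 0 were called (0.238%), against 10 and 2.63% as reported. The 13 probe sets called lower became 7 with median centring, 8 without a filter on dim probe sets, 8 without an intensity trend, 4 with the submitters' error model, 8 at an adjusted p of 0.05 and 1 with averaged pools. Leaving out 1 array at a time gave 3 to 10 genes and 5 to 13 probe sets. The shares of all tested probe sets called under these alternatives are not given here. The median log2 difference of the 10 genes was -0.62 with a pseudocount of 64 and -0.70 over the 9 genes tested with probe sets averaged. With 1 array left out it ran from -0.96 to -0.78. Aurka minus Aurkb was 0.42 with probe sets averaged, 0.40 with the probe set of largest difference and -0.088 within the set with brighter controls, the opposite sign. Bub1 minus Bub1b was 0.18 with probe sets averaged and 0.37 with the probe set of largest difference, both of opposite sign to the value reported. Without 1 array at a time the contrast of Bub3 with the other 9 ran from 0.45 to 0.65. The causes were not tested. With values as deposited the median of all tested genes was 0.13, and 70.3% of all calls were rises against 43.6% as reported. With the replicate number as a block 3 genes and 5 probe sets were called, when 1.31% of all tested genes were called lower. Deviations of same-numbered pools correlated at 0.17, -0.35 and -0.48, and not every pool correlated best with its own number. With 3 pools per genotype these values cannot show whether same-numbered pools shared litters or handling. Ttk could not be tested with probe sets averaged, nor Ttk and Bub1 with the lowest 60% left out, since they were then too dim. Arrays carry no depth, and dim probe sets limit what can be read of 6 of the 22.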
